A study of Homo sapiens with 6 samples.

Results

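The genes described here are 41 genes of homologous recombination and the Fanconi anemia pathway, chosen by their official symbols from a fixed list among the 19240 genes of the deposited counts table. All 41 were found in the table and all 41 passed the filter on low counts. Their transcripts were counted from the 3' end in A549 cells, a long-established line from a human lung carcinoma. The groups were cells held for 48 h in medium with 25 mM glucose and cells held for the same time in medium without glucose, with 3 libraries each. No genetic change or drug is named for either group, and the series asks how tumor cells grow when glucose is lacking.

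Homologous recombination mends a double-strand DNA break by copying the intact sister chromatid, and it is therefore used mainly in S and G2 phase. The break is sensed by the MRE11-RAD50-NBN complex and by the kinases ATM and ATR, its ends are cut back to single strands, a protein filament on them invades the sister duplex, and the joined molecules are then untangled or cut. The Fanconi pathway acts at crosslinks that stall replication forks: a core complex of FANC proteins attaches ubiquitin to FANCD2 and FANCI, and the lesion is handed on to nucleases and recombination. Many genes of both pathways are transcribed mainly in cycling cells.

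Reads counted in genes numbered 6701004 to 14259943 a library with glucose, and 11086416 to 14060313 without. Levels are given as CPM, counts divided by the TMM-scaled library size and not by transcript length, so they compare libraries and not genes. The labels do not say whether replicate libraries are separate cultures; the p-values therefore rest on a spread that may be technical. Replicate 1 with glucose stood apart from the other libraries of its group on the second principal component, and it had the lowest level of its group for 25 of the 41 members (36.8% of all genes tested). In that library, genes in the longest of 4 transcript length classes were lower than in replicates 2 and 3 (median log2 difference −0.14) and those in the shortest class higher (0.16). Replicate 2 without glucose leaned the same way against its group, by −0.10 and 0.08. Over the members, the median difference was −0.29 for replicate 1 with glucose and −0.003 for replicate 2 without glucose. In the group without glucose, replicate 3 was lowest for 20 members (29.2% of all genes tested) and replicate 2 for 12 (33.9%). The part of transcript length in the members' levels was not tested. Where leaving out 1 of these libraries ends or makes the call of a member, its value without that library is given; genes of the other lists are given with all 6 libraries only. All 13 markers listed for A549 and epithelial cells were detected, among them KRT8, KRT18 and AKR1B10. The adhesion genes EPCAM (2.5 to 5.6 CPM) and CDH1 (4.6 to 8.2 CPM) were low in all libraries. Without glucose 6 of the 13 fell and 1 rose, beside 10.7% and 11.6% of all genes tested. Of 8 alveolar type 2 markers 3 had no count, SFTPC among them, and NKX2-1 reached at most 0.14 CPM. The only one tested, the lipid transporter ABCA3, stood at 14.2 to 15.3 CPM with glucose and at 19.3 to 24.2 without, without overlap, and did not pass (log2 fold change 0.58, edgeR adjusted p = 0.0581). Of 10 markers of immune, endothelial and stromal cells 5 had no count, and only COL1A1 was tested. It stood at 10.7 to 14.1 CPM with glucose and fell to 4.2 to 5.4 CPM without.

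Promoters are shown for 3 members that fell without glucose, because factors of the E2F family, which drive S-phase genes, are known to bind letters of the type TTTCCCGC or TTTGGCGC. Binding was not measured here. FANCD2 and XRCC2 had the smallest p-values among the members whose promoter window holds such letters, and EXO1 had the smallest among those whose window held none of 5 motifs searched (these 2, the CHR-type motifs TTTGAA and TTCGAA, and the CCAAT box). Each window runs from 250 bases before to 50 after the start that RefSeq lists on GRCh38.p14, 5′ to 3′ on the gene's strand, and capitals mark the match. RefSeq lists a second start for EXO1, which is not shown. The windows are chr3:10026187-10026486 on the plus strand for FANCD2, chr7:152676092-152676391 on the minus strand for XRCC2 and chr1:241847954-241848253 on the plus strand for EXO1.
FANCD2: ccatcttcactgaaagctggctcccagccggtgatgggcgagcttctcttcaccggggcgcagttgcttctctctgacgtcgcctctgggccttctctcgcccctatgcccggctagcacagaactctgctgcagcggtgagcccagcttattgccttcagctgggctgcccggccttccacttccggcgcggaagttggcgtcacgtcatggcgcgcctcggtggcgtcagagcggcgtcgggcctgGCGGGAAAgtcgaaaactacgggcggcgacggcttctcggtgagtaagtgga
XRCC2: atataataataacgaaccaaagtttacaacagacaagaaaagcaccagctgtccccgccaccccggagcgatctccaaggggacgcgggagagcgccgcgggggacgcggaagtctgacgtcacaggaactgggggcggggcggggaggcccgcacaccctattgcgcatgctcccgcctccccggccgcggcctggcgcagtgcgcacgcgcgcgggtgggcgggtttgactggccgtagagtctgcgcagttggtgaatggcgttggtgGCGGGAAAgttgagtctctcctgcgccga
EXO1: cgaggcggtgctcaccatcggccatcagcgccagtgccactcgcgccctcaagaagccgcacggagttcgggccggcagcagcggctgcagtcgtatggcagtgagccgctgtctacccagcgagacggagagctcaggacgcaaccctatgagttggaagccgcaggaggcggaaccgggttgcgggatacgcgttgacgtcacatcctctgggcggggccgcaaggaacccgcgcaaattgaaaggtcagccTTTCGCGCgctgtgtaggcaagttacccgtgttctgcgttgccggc

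In FANCD2 and XRCC2 the match is TTTCCCGC on the opposite strand, and it lies at the transcript start, beginning 2 bases before it in FANCD2 and at base 22 after it in XRCC2. The capitals in EXO1 mark TTTCGCGC, a spelling of the same kind that was added to the search, with TTTGCCGC, after the sequences had been seen. Promoter windows were found for 35 members; DNA2, FANCI, NBN, RAD54B, RMI2 and TONSL had no entry. Letters of the first 2 spellings, on either strand, were held by 3 of the 35 (8.57%: FANCC, FANCD2 and XRCC2) and by 2.75% of 27305 genes with a window. With all 4 spellings the numbers were 7 of 35 and 3.99%, and the 7 comprised 5 of 18 members that fell and 2 of 17 that did not. EXO1 is counted among the 7 and among the 5, so these numbers rest in part on a sequence seen before the spellings were added. The CCAAT box was held by 18 of 35 members, 9 of the 18 that fell and 9 of the 17 that did not, against 39.7% of all genes. TTTGAA was held by 3 members (8.57%, against 18.2% of genes), among them ATM, and TTCGAA by GEN1 alone among the members (2.86%, against 1.82%). The members' windows had a median GC content of 63.8%, against 58.7% for all promoters in the table, and its part in these shares was not tested.

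Without glucose, 23 of the 41 genes fell, 1 rose and 17 did not pass edgeR's quasi-likelihood test (Benjamini-Hochberg adjusted over 11886 genes). Among all genes tested, 10.7% fell and 11.6% rose. The median log2 fold change was −1.01 over the members and 0.02 over all genes tested. The genes that fell lay in each of the 5 steps: 2 of 7 in sensing, 3 of 5 in end resection, 8 of 12 in strand exchange, 3 of 6 in resolution and 7 of 11 in the Fanconi pathway. The gene that rose was ATM. Groups of 3 libraries did not overlap for 24 members that were lower without glucose (19.4% of all genes tested) and 1 that was higher (21% of all genes tested). When 1 library was left out, 17 to 23 members fell, and 23 fell when both replicate 1 with glucose and replicate 2 without glucose were left out, a fit chosen after the data were seen. Just inside the threshold lay MMS22L and CHEK2 (edgeR adjusted p = 0.0274 and 0.0275), and just outside it FANCL and FANCM (0.0641 and 0.0904).

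**Figure D1:**
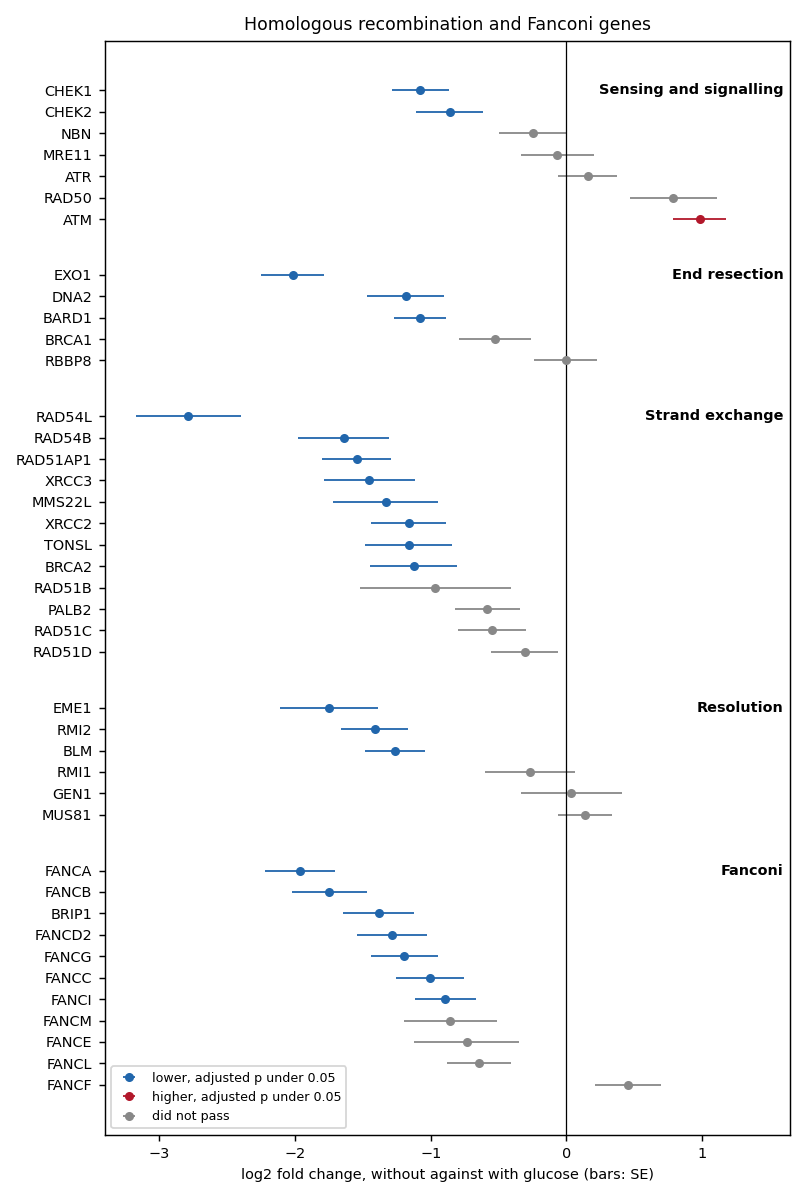
Log2 fold changes of the 41 genes without against with glucose (x axis, log2 scale; bars are SE, 3 libraries per group), ordered by step and by size; color gives the edgeR call. Blue points, the 23 genes that fell, lie in every step, ATM is the red point at 0.98, and RAD54L is farthest to the left at −2.79.

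**Figure D2:**
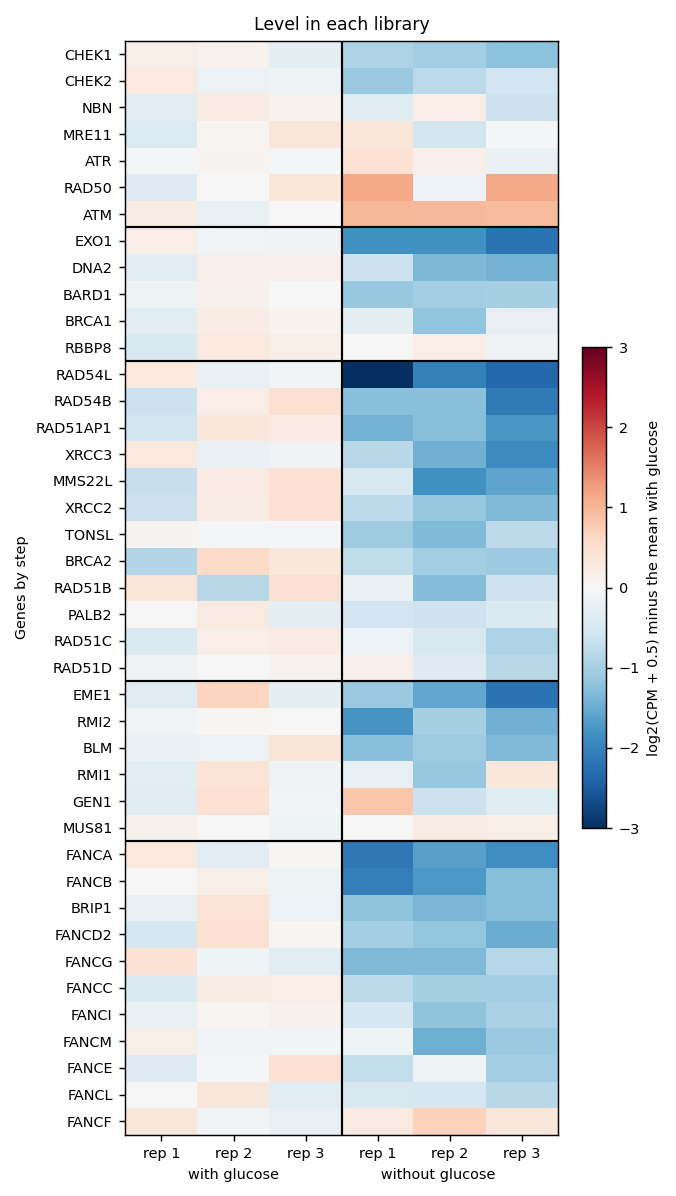
Level of each gene (rows, by step) in each of the 6 libraries (columns), as log2(CPM + 0.5) minus the mean of the 3 libraries with glucose. Blue is lower and red higher: most rows are blue in all 3 libraries without glucose, ATM and FANCF are red in all 3, and RAD50 is red in replicates 1 and 3 without glucose but not in replicate 2.

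Of the sensing genes, 1 of the kinases that start the signal rose, and both kinases that carry it fell. ATM (Entrez 472), the kinase activated at double-strand breaks, stood at 28.7, 20.9 and 24.3 CPM in replicates 1 to 3 with glucose and at 49.4, 48.4 and 47.7 CPM without it. All 3 libraries without glucose were above all 3 with it, and they lay within 2 CPM of each other. Its log2 fold change was 0.98 ± 0.20 (SE), a 1.97-fold rise, with an adjusted p of 0.00417 by edgeR. ATR (545), the related kinase activated by single-stranded DNA, stood at 20.6, 22.6 and 20.8 CPM with glucose and 29.02, 23.8 and 18.6 CPM without. The groups overlapped, and ATR did not pass (log2 fold change 0.16 ± 0.22).

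The checkpoint kinases that ATR and ATM activate both fell. CHEK1 (1111), the main target of ATR, stood at 64.0, 61.2 and 46.2 CPM with glucose and at 29.6, 27.6 and 24.0 CPM without, a 2.11-fold drop (log2 fold change −1.08 ± 0.21, edgeR adjusted p = 0.00336). CHEK2 (11200), the main target of ATM, stood at 19.2, 13.7 and 14.3 CPM with glucose and at 6.92, 8.65 and 10.2 CPM without (log2 fold change −0.86 ± 0.25, edgeR adjusted p = 0.0275). Neither gene's groups overlapped. The CHEK2 call did not hold without replicate 1 (0.0712) or 3 (0.0519) with glucose, or when replicate 1 (0.0871) or 2 (0.0577) was left out of the group lacking glucose. It was also lost under a replicate block (0.0602), and without both replicate 1 with glucose and replicate 2 without it (0.0917). Only CHEK1 fell among the sensing genes when any 1 of those 4 libraries was left out. RefSeq names 6 pseudogenes of CHEK2, and reads that align equally well to more than 1 place are not in the gene counts, so its level is uncertain.

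The 3 genes of the break-binding complex did not pass. RAD50 (10111), the long coiled-coil ATPase that bridges the ends, stood at 235, 313 and 399 CPM with glucose and at 679, 275 and 681 CPM without. Replicates 1 and 3 without glucose were above every library with glucose, and replicate 2 was not. RAD50 had a log2 fold change of 0.79 ± 0.32 (edgeR adjusted p = 0.0952), and without that replicate 2 it passed as higher (1.09, edgeR adjusted p = 0.0125). MRE11 (4361), the nuclease of the complex, stood at 35.6, 49.7 and 61.3 CPM with glucose and at 61.5, 32.3 and 46.6 CPM without. NBN (4683), which brings ATM to the complex, stood at 82.4, 122 and 111 CPM with glucose and 80.4, 119 and 66.4 CPM without. In both genes the groups overlapped, and the log2 fold changes were −0.07 ± 0.27 and −0.25 ± 0.25. With both replicate 1 with glucose and replicate 2 without glucose left out, RAD50 passed as higher (0.90, adjusted p = 0.00866) and NBN as lower (−0.71, adjusted p = 0.0361).

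Of the genes that cut back the ends, both long-range nucleases fell and the initiating factor did not pass. EXO1 (9156), a 5′ to 3′ exonuclease, stood at 31.7, 25.6 and 25.3 CPM with glucose and at 7.40, 7.42 and 5.52 CPM without. The drop was 4.05-fold, and the groups lay far apart (log2 fold change −2.02 ± 0.23, edgeR adjusted p = 1.63e-04, the smallest of the members). DNA2, a nuclease and helicase that works beside BLM, fell from 14.2 ± 2.54 to 6.32 ± 2.17 CPM (SD, n = 3), but its adjusted p was 0.0553 when replicate 3 lacking glucose was left out. RBBP8 (5932), also called CtIP, starts resection with the MRE11 complex. It stood at 66.3, 114 and 105 CPM with glucose and at 91.2, 107 and 86.6 CPM without, so that the groups overlapped (log2 fold change −0.01 ± 0.23).

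BRCA1 and BARD1, whose proteins form a ubiquitin ligase that promotes resection and filament loading, had different calls. BARD1 (580) stood at 53.8, 64.6 and 58.8 CPM with glucose and at 26.4, 28.5 and 29.1 CPM without, a 2.11-fold drop (log2 fold change −1.08 ± 0.19, edgeR adjusted p = 0.00197). BRCA1 (672) stood at 107, 156 and 145 CPM with glucose and at 111, 59.1 and 114 CPM without. Only replicate 2 without glucose lay below every library with glucose, and BRCA1 did not pass (log2 fold change −0.53 ± 0.26, edgeR adjusted p = 0.169). Without that replicate 2 the log2 fold change was −0.30 (edgeR adjusted p = 0.414). There were 1.99 to 2.46 BRCA1 counts per BARD1 count with glucose and 2.07 to 4.19 without, and these ranges overlapped (exact two-sided permutation p = 0.3), so a difference between the partners was not shown.

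In strand exchange 8 of 12 genes fell. BRCA2 (675), which acts in filament assembly on single strands, stood at 12.0, 33.6 and 27.9 CPM with glucose and at 13.0, 10.7 and 10.2 CPM without. Replicate 1 with glucose lay among the libraries without glucose, and without that library the log2 fold change was −1.45 (edgeR adjusted p = 0.00144). The call on all libraries (−1.13 ± 0.32, edgeR adjusted p = 0.0251) was lost with a replicate block (0.0521) and without replicate 2 (0.114) or 3 (0.0824) with glucose or replicate 2 (0.0646) or 3 (0.0925) without it. PALB2 (79728), which joins BRCA2 to BRCA1, stood at 12.9, 15.9 and 10.8 CPM with glucose and at 8.54, 8.27 and 9.50 CPM without. Its groups did not overlap, but it did not pass (log2 fold change −0.58 ± 0.24, edgeR adjusted p = 0.1005).

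The 3 lowest log2 fold changes of the step belonged to RAD54L, RAD54B and RAD51AP1, which act with the filament. RAD54L (8438), a translocase that drives strand invasion, stood at 12.3, 8.55 and 9.50 CPM with glucose and at 0.664, 2.07 and 1.55 CPM without. These are 311 counts over the libraries with glucose and 55 without, or 0.151 times as many once library sizes were scaled (exact 95% interval 0.111 to 0.201, for counting error only). Its log2 fold change of −2.79 ± 0.38 (edgeR adjusted p = 4.66e-04) was the lowest of the 41. RAD54B, its paralog, fell 3.12-fold. RAD51AP1 (10635), a DNA-binding protein of strand invasion, stood at 32.6, 59.9 and 57.2 CPM with glucose and at 17.7, 19.7 and 13.996 CPM without, a 2.92-fold drop (−1.55 ± 0.26, edgeR adjusted p = 0.00134).

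RAD51B, RAD51C, RAD51D, XRCC2 and XRCC3 form complexes that stabilize the filament, and 2 of these 5 genes fell. XRCC3 fell from 10.6 ± 1.99 to 3.88 ± 1.66 CPM and XRCC2 from 34.1 ± 12.0 to 15.3 ± 3.16 CPM (SD, n = 3 per group). The XRCC2 call did not hold when replicate 3 of either group was left out (0.0562 with glucose, 0.0577 lacking it). RAD51C, the partner of XRCC3, did not pass (−0.55 ± 0.25), though it did without replicate 1 with glucose (−0.73, adjusted p = 0.0488). RAD51D, the partner of XRCC2, had −0.31 ± 0.25 and did not pass. RAD51B had 9 to 50 counts a library and an error too wide for a call: its pooled ratio without against with glucose was 0.491 (exact 95% interval 0.338 to 0.707, counting error only), while its log2 fold change was −0.97 ± 0.56. MMS22L and TONSL, whose complex acts at stalled forks, both fell (log2 fold change −1.33 ± 0.39 and −1.16 ± 0.32). The groups overlapped for MMS22L, where replicate 1 stood at 10.2 CPM with glucose and 11.8 without. Both calls were lost without replicate 2 or 3 with glucose and without replicate 2 lacking it. The MMS22L call was also lost without replicate 3 lacking glucose, and the TONSL call without replicate 1 lacking it (adjusted p from 0.0838 to 0.106 for MMS22L and from 0.0524 to 0.0636 for TONSL). TONSL did not pass either without both replicate 1 with glucose and replicate 2 lacking it (0.0771). In the whole step 4 genes fell without replicate 3 with glucose, and 5 without replicate 2 with glucose or when replicate 2 or 3 lacking it was left out.

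In the step that separates the joined molecules, 2 of the 3 genes of dissolution fell (BLM and RMI2, not RMI1), and 1 of the 3 of the nucleases (EME1, not MUS81 or GEN1). BLM (641), the helicase lost in Bloom syndrome, stood at 40.7, 41.6 and 61.4 CPM with glucose and at 19.4, 22.0 and 18.5 CPM without, a 2.40-fold drop with no overlap (−1.26 ± 0.22, edgeR adjusted p = 0.00185). RMI2, a small subunit of the BLM complex, fell from 22.5 ± 1.05 to 8.44 ± 2.41 CPM, while its partner RMI1 went from 21.8 ± 6.01 to 18.1 ± 8.81 CPM and did not pass. EME1, the regulatory partner of the MUS81 nuclease, fell 3.36-fold (−1.75 ± 0.36, edgeR adjusted p = 0.00494). MUS81 itself had 19.4 ± 1.74 CPM with glucose and 21.3 ± 1.84 without, and GEN1, a resolvase that acts alone, 12.8 ± 4.03 and 13.3 ± 7.95. Neither passed.

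Among the Fanconi genes, 4 of the 8 that encode the anchor and core complex fell. FANCA (2175), a scaffold of the complex, stood at 28.4, 18.2 and 23.5 CPM with glucose and at 4.84, 7.04 and 5.97 CPM without, a 3.90-fold drop (−1.96 ± 0.26, edgeR adjusted p = 3.22e-04). FANCB (2187), which with FANCL forms the catalytic module, stood at 14.7, 16.8 and 13.4 CPM with glucose and at 3.22, 4.13 and 5.89 CPM without, a 3.36-fold drop (−1.75 ± 0.28, edgeR adjusted p = 0.00106). Both pairs of groups lay well apart. FANCG, a partner of FANCA, fell from 44.1 ± 12.5 to 19.2 ± 3.95 CPM. FANCC fell from 17.0 ± 4.09 to 8.52 ± 0.841 CPM, but not without replicate 2 (adjusted p = 0.0542) or 3 (0.0545) with glucose or replicate 3 without it (0.0558).

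The other 4 core genes did not pass. FANCL, the ubiquitin ligase, had a log2 fold change of −0.65 ± 0.23 (edgeR adjusted p = 0.0641) and groups that did not overlap, and it passed as lower with library totals as scaling (0.0490) and without replicate 3 with glucose (0.0485). FANCM, the translocase that anchors the complex to DNA, had −0.86 ± 0.34 and also did not overlap, and it passed once replicate 1 lacking glucose was left out (−1.37, adjusted p = 0.0108). FANCE, which binds FANCD2, had −0.74 ± 0.39 with 25 to 95 counts a library, and passed only with both replicate 1 with glucose and replicate 2 without it left out (−1.31, adjusted p = 0.0432). FANCF, an adaptor of the complex, had 0.45 ± 0.24, the single positive log2 fold change of the Fanconi genes.

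Both genes of the complex that receives ubiquitin fell. FANCD2 (2177) stood at 31.5, 62.6 and 47.4 CPM with glucose and at 22.1, 20.2 and 15.8 CPM without, a 2.44-fold drop (−1.29 ± 0.26, edgeR adjusted p = 0.00424). FANCI (55215) stood at 99.2, 118 and 124 CPM with glucose and at 78.0, 48.4 and 57.5 CPM without, a 1.86-fold drop (−0.89 ± 0.22, edgeR adjusted p = 0.0135). Neither gene's groups overlapped, though the FANCI call was lost without replicate 2 (0.0506) or 3 (0.0533) with glucose, and without replicate 3 lacking it (0.0576). There were 0.318 to 0.530 FANCD2 counts per FANCI count with glucose and 0.276 to 0.418 without, and these ranges overlapped. BRIP1, a helicase that binds BRCA1, fell from 14.9 ± 3.94 to 5.69 ± 0.312 CPM (−1.39 ± 0.26). RefSeq names 2 pseudogenes each of FANCD2 and RBBP8 and 1 each of BRCA1, RAD51AP1 and MRE11, so these levels carry the same uncertainty as that of CHEK2.

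Ratios between partner genes within a library do not depend on scaling, and 18 pairs were compared. In 6 of them the groups did not overlap, 4 lower and 2 higher without glucose. Among single genes tested, 19.4% were lower and 21% higher without overlap. No such share was worked out for pairs, so the count of 6 is not read as a result. An exact two-sided permutation test of 3 against 3 libraries cannot go below p = 0.1, which these 6 reached, and after Benjamini-Hochberg adjustment over the 18 the smallest value was 0.3, so no pair passed. There were 1.49, 1.52 and 1.70 ATM counts per CHEK2 count with glucose and 7.10, 5.58 and 4.65 without (replicates 1, 2 and 3). ATR counts per CHEK1 count went from 0.323, 0.369 and 0.449 to 0.981, 0.862 and 0.773. In both, the upstream kinase was higher relative to its target in every library without glucose. EME1 counts per MUS81 count were 0.548, 1.24 and 0.711 with glucose and 0.353, 0.215 and 0.132 without, and FANCB counts per FANCL count 0.579, 0.515 and 0.667 against 0.180, 0.235 and 0.418. XRCC3 relative to RAD51C and MRE11 relative to RAD50 were also lower without glucose in every library, with differences in mean log2 ratio of −0.97 and −0.78.

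**Figure D3:**
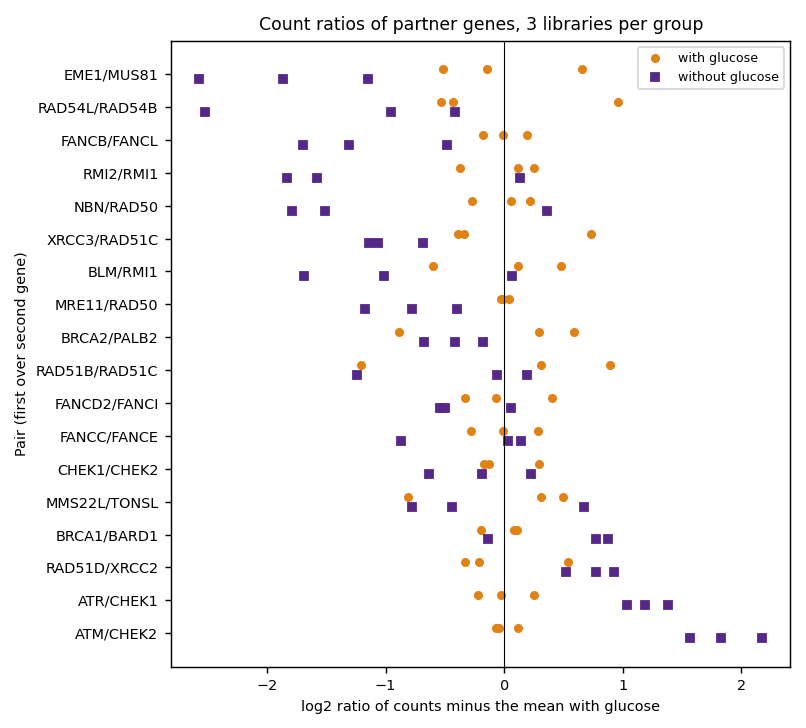
Log2 ratio of the counts of 2 partner genes in each library, minus the mean with glucose (x axis), for 18 pairs ordered by the difference between groups; each point is 1 library. The purple squares (without glucose) lie wholly to the right of the orange circles for ATM/CHEK2 and ATR/CHEK1 and wholly to the left for EME1/MUS81, FANCB/FANCL, XRCC3/RAD51C and MRE11/RAD50.

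A further list of 61 genes that act beside the members in recombination, fork protection and crosslink repair was read in the same way. Of 60 tested, 19 fell, 4 rose and 37 did not pass, with a median log2 fold change of −0.42. Among all genes tested 10.7% fell and 11.6% rose, so the 4 that rose are no larger a share than the background. H2AX, the histone variant phosphorylated at breaks, fell from 278 ± 54.8 to 72.9 ± 9.41 CPM. UBE2T, the enzyme that passes ubiquitin to FANCD2, fell from 112 ± 8.52 to 36.3 ± 8.09 CPM, and UHRF1, which reads hemimethylated DNA, from 53.7 ± 14.97 to 19.4 ± 1.58 CPM. DMC1, the meiotic recombinase, had 93 counts over the libraries with glucose and 7 without, a ratio of 0.0642 (exact 95% interval 0.0251 to 0.138, counting error only).

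The 4 that rose, named after their values were seen, were ABRAXAS1, BABAM2, RAD17 and ZSWIM7. ABRAXAS1 and BABAM2 are subunits of the BRCA1-A complex, which holds BRCA1 at ubiquitin marks and limits resection. ABRAXAS1 rose from 8.57 ± 3.40 to 24.1 ± 6.97 CPM and BABAM2 from 24.6 ± 1.87 to 55.4 ± 21.0 CPM, with log2 fold changes of 1.46 ± 0.31 and 1.17 ± 0.26. The other subunits of that complex, UIMC1, BRCC3 and BABAM1, did not pass, with log2 fold changes of −0.02, 0.06 and −0.50. RAD17, which loads the checkpoint clamp for ATR signaling, rose from 14.9 ± 3.21 to 29.2 ± 3.59 CPM. ZSWIM7, which acts in recombination, rose by 0.63 ± 0.20 on the log2 scale.

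End joining, the route that religates breaks without a template, had 3 of 20 tested genes that fell and 17 that did not pass, with a median log2 fold change of −0.09. That share of 15% stands beside 10.7% of all genes tested, and nothing about the list is read from it. XRCC6 and XRCC5, the Ku subunits that bind broken ends, fell from 339 ± 29.6 to 187 ± 18.6 CPM and from 376 ± 81.9 to 198 ± 20.1 CPM. POLQ, the polymerase of an end joining route that uses short homologies, fell from 16.3 ± 4.38 to 6.204 ± 1.05 CPM. Whether the recombination and end joining lists differ was not tested.

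Most markers of cycling cells also fell without glucose. Of 27 S-phase genes 26 fell and 1 did not pass (median log2 fold change −1.70), and their summed level was 3044 to 3328 CPM with glucose and 973 to 1061 without. Of 20 mitotic genes 19 fell (median −1.38), with summed levels of 3079 to 4763 and 1456 to 2128 CPM. The members' own summed level was 1415 to 1832 CPM with glucose and 1127 to 1653 without, and these ranges overlapped. RAD50, which did not pass, had the highest level of any member in that sum, at 235 to 399 CPM with glucose and 275 to 681 without. The sums of the sensing genes, RAD50 among them, overlapped (485 to 676 and 535 to 936 CPM). Those of each other step were lower in every library without glucose. They were 270 to 377 and 207 to 244 CPM for end resection, and 225 to 339 and 122 to 196 for strand exchange. For resolution they were 121 to 154 and 77.8 to 91.7 CPM, and for the Fanconi genes 313 to 353 and 155 to 185. Per 100 CPM of the S-phase genes, the members summed to 42.5 to 59.6 CPM with glucose and to 106 to 170 without. This ratio also holds RAD50, which was not taken out, so it is not read as a rise of the members as a set. TK1, the thymidine kinase of S phase, had a log2 fold change of −2.28 ± 0.19. In these bulk libraries fewer cells in S phase and less RNA per cell cannot be told apart, and the part of cell cycle phase in the members' levels was not tested. Of 14 tested genes listed as signs of handling stress, 6 rose and 8 did not pass, beside 11.6% of all genes tested that rose. Their summed levels were 1794 to 2087 CPM with glucose and 2637 to 3100 without. FOS, 1 of the 6, had 1 to 18 counts a library with glucose. The part of handling stress was not tested either.

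**Figure D4:**
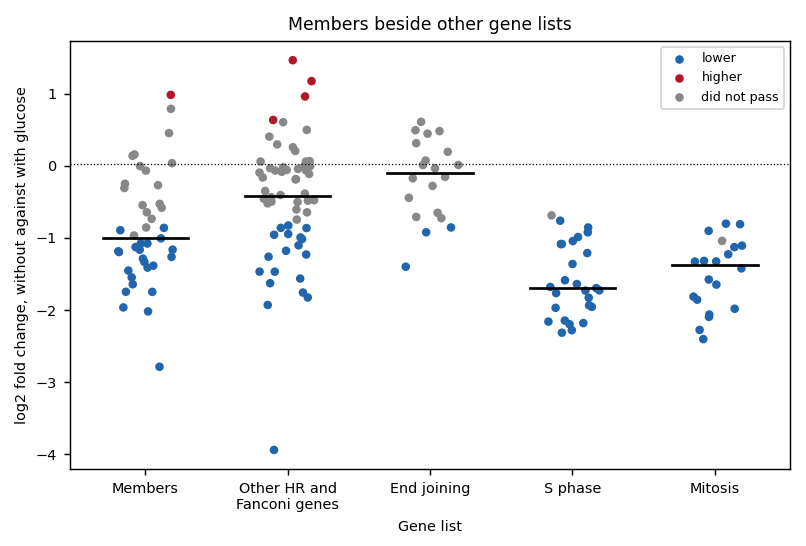
Log2 fold change without against with glucose (y axis) of the tested genes of 5 lists; each point is 1 gene, colored by its edgeR call, black bars are list medians and the dotted line is the median of all 11886 genes tested (0.02). Medians stand at −1.01 for the members, −0.42 for the other recombination and Fanconi genes, −0.09 for end joining, −1.70 for S phase and −1.38 for mitosis.

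Exons of 12 members overlap those of another gene of the table in the GENCODE 29 annotation, 11 of them on the opposite strand, and the setting of the counting is not given although the libraries are strand-specific per the labels, so their levels are uncertain. None of the 9 overlapping genes that were tested passed edgeR's test. LRRC59 beside EME1 had a log2 fold change of −0.11, KLC1 beside XRCC3 0.37, ZNF276 beside FANCA 0.20 and POLG beside FANCI −0.32. CFL1 beside MUS81 had −0.40 with 11802 counts a library on average, and SMC6 beside GEN1 0.47 with 2192. MUS81 itself had 150 to 299 counts a library and GEN1 67 to 236. LRRC59 averaged 2573.5 counts, while EME1 had 39 to 248 a library. Whether reads of these neighbors entered the members' levels was not tested. LRRC41 beside RAD54L had an edgeR adjusted p of 0.999. C11orf65, which overlaps ATM, had 4.33 counts a library on average, and FANCD2OS beside FANCD2 and FSBP beside RAD54B had none.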

How the data were processed

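The authors deposited raw counts of reads per gene, made with STAR and HTSeq on hg19 per the submitters' processing notes; the sources used here do not give versions, gene annotation or strand setting. Per the labels' protocols, cDNA was primed with barcoded oligo-dT and amplified; no molecular identifiers are mentioned. The 5 HTSeq summary lines, which name no gene, were left out throughout; reads in genes were 43.1% to 44.7% of each library. Symbols came from a RefSeq table of GRCh38.p14 (19178 of 19240 genes).

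Groups were compared with edgeR 4.0.16 (R 4.3.3; quasi-likelihood F test, two-sided, TMM scaling, filterByExpr at a minimum count of 10, no covariate), with Benjamini-Hochberg adjustment over 11886 genes; an adjusted p under 0.05 passed. SEs were worked back from F. Ratios had 0.5 added to each count (2 as an alternative), and exact permutation tests used scipy 1.17.1. The fit was also run on counts simulated with a common dispersion for all genes, and nothing about the calls given here is read from it. Libraries of a group differed beyond sampling noise (chi-square over degrees of freedom 22.1 to 57.3), so none were merged.

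Alternatives were DESeq2 1.42.0, RLE scaling, library totals, no filter, a mean of at least 20 counts, a replicate block and leaving out libraries. The members, lists and motifs were chosen with earlier results of these data known. Per-library values are given for the 6 called members with the smallest p, for the member called against the main direction and for 14 members fixed by name; of the 2 neighboring lists the 5 called genes with the smallest p were to be named, and some genes that this rule names are not reported here.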

Additional observations from a re-analysis of the deposited data

How the results depend on the processing

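Under 13 other settings of the fit, 1 of them chosen after the data were seen, 16 of the 24 called members kept their call and none changed direction; the other 8 were BRCA2, CHEK2, DNA2, FANCC, FANCI, MMS22L, TONSL and XRCC2. The number of members that fell was 23 with DESeq2, with RLE scaling and with either other filter, 24 with library totals, 21 with a replicate block and 17 to 23 when 1 library was left out. The replicate block ended the calls of BRCA2 and CHEK2 and gave 911 lower and 984 higher genes. Same-numbered libraries did not deviate together (correlations −0.27, −0.12 and 0.04), while replicate 1 with glucose and replicate 2 without it correlated at 0.25. With 3 libraries per group these correlations cannot exclude a shared culture or batch. The labels do not say whether same-numbered libraries are paired, so the pairing is unknown. The median over the members was −1.11 to −0.93 when 1 library was left out. Over all genes, 860 to 1292 rose and 781 to 1232 fell when 1 library was left out, and 1330 fell without both replicate 1 with glucose and replicate 2 without it. The number of members that rose was 1 to 2, and it was 2, ATM and RAD50, without that pair of libraries or without replicate 2 lacking glucose. Some uncalled members changed sign. GEN1 was −0.032 with library totals and −0.083 with a replicate block, and RBBP8 was 0.027 with a replicate block. On leaving out 1 library GEN1 ran from −0.57 to 0.31 and RBBP8 from −0.21 to 0.14 (−0.34 without the pair). In the same fits MRE11 ran from −0.31 to 0.13, ATR from −0.011 to 0.30 and RMI1 from −0.70 to 0.022. Ratio differences that changed sign on leaving out 1 library were CHEK1/CHEK2 (−0.41 to 0.021), FANCC/FANCE (−0.42 to 0.084), MMS22L/TONSL (−0.61 to 0.12) and RAD51B/RAD51C (−0.97 to 0.079). The cause was not tested in any of these. Depth limits RAD51B, with 9 to 50 counts a library, and RAD54L, with 7 to 27 without glucose.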
